A study of Mus musculus with 33 samples.

Results

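The caveolins and cavins are the 2 protein families that build caveolae, and their transcripts were followed here across 8 mouse colon organoid lines. The members were the 3 caveolins *Cav1*, *Cav2* and *Cav3* and the 4 cavins *Cavin1*, *Cavin2*, *Cavin3* and *Cavin4*, matched by Ensembl gene identifier, which made 7 of the 32285 identifiers counted. *Cav2* was the starting point and was chosen by its CPM values, which differed between the mini-colon lines, so that difference is described below and not tested. The libraries are 3′ RNA-seq (one tag near the 3′ end of each transcript), 33 in all, from colon organoids with engineered alleles, *Apc* and *Trp53* among them, and they compare tumour organoids that arose in a dish with tumour organoids taken from mice.

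The in vivo AKP line (6 libraries) was grown from colon tumours of tamoxifen-treated mice whose engineered alleles were recombined by Cdx2-creERT2, a Cre driven by a promoter of the intestinal epithelium. The 5 mini-colon AKP lines, numbered #i to #v (3 libraries each), were grown from tumours that had developed in mini-colons, which are tube-shaped colon epithelia cultured in a microfabricated hydrogel. They came from mini-colons enriched in tumours of either the crypt or the lumen, and the study names #i as lumen-enriched and #v as crypt-enriched. Their alleles had been recombined by OptoCre, a doxycycline- and blue-light-dependent Cre. The organoid AKP line (6 libraries) carried the same OptoCre activation but was only ever passaged as organoids, in parallel with the mini-colons. The control line (6 libraries) was the parental organoid, with Apc fl/fl and Trp53 fl/fl among its unrecombined alleles, carrying OptoCre that was not induced. All lines were grown as organoids and held in basal medium without growth factors before RNA was taken. The study describes its bulk libraries as independent sets of samples, and those of the organoid and mini-colon lines as cultures, so p-values measure the spread between cultures of a line and not between animals or tumours.

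Library totals ran between 2438672 and 8256526 counts (median 3748649). The names of the libraries carry a letter, E or F, whose meaning is not stated: in vivo AKP, organoid AKP and control have 3 libraries of each letter, #i to #iii are all E and #iv and #v are all F. The letter moves with some results and its values are given beside them. The main tests hold no term for it. In in vivo AKP, organoid AKP and control the spread between libraries therefore includes any gap between the letters. The summed level of 8 colon epithelium markers was 3229–3493 CPM (counts scaled to library size, with TMM factors) in in vivo AKP, 3019–3509 CPM over the mini-colon lines, 3172–3645 CPM in organoid AKP, and 10040–11150 CPM in the control line. Among markers of other cell types that can carry many caveolae, 4 of 9 endothelial genes, 2 of 10 fibroblast genes, 1 of 5 adipocyte genes and 0 of 6 smooth muscle genes passed the filter on low counts. *Trp53* held 19.2–34.2 CPM in in vivo AKP libraries, against 1.07–3.78 CPM in those of organoid AKP, 7.37–11.7 CPM in #iii, 1.97–3.93 CPM over the other mini-colon lines and 14.4–19.1 CPM in control. In vivo AKP thus lay above the unrecombined control, but 3′ tags can lie outside the deleted part of the gene and therefore check nothing about the deletion.

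Caveolae are small flask-shaped pits of the plasma membrane that buffer membrane tension and host signalling receptors, transporters and lipids. Caveolin-1 inserts into the inner membrane leaflet and oligomerises, caveolin-2 joins it in the same oligomers and is poorly exported without it, and caveolin-3 takes the place of caveolin-1 in muscle. Cavins form a coat over the caveolin oligomers: cavin-1 is needed for caveolae to form, cavin-2 helps bend the membrane, cavin-3 links the coat to signalling and trafficking, and cavin-4 is the form of striated muscle. Caveolae are abundant in adipocytes, endothelium, fibroblasts and muscle and sparse in intestinal epithelium.

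*Cav1* and *Cav2* lie next to each other on chromosome 6 in the same orientation. On GRCm39 with GENCODE M39, *Cav2* covers chr6:17281026-17289877 (plus strand) and *Cav1* chr6:17306140-17341451 (plus strand), 16.3 kb further on, whereas *Cav3* sits apart at chr6:112436466-112449833. The cavins are dispersed, with *Cavin1* at chr11:100847559-100861713 (minus strand), *Cavin2* at chr1:51328266-51345710 (plus strand), *Cavin3* at chr7:105128391-105131507 (minus strand) and *Cavin4* at chr4:48663503-48674045 (plus strand). In organoid AKP against control, *Cavin2* was lower, while *Cav1*, *Cav2*, *Cavin1* and *Cavin3* were higher. The promoters of the neighbouring pair and of *Cavin2* and *Cavin3*, 2 cavins that moved in opposite directions there, are shown. Each run covers 250 bases before to 50 bases after the first base of the canonical transcript, read 5′ to 3′ on the gene's own strand from GRCm39. Capitals mark matches, on either strand, to 5 short motifs. TATAAA stands for the box bound by the TATA-binding protein. GGGCGG is the box of the Sp family, and CATTCC is the motif of the TEAD factors. TGANTCA is the AP-1 element, to which Fos and Jun proteins bind, and CTTTGAT is read by the TCF and LEF factors of Wnt signalling.
*Cav1*, chr6:17305890-17306189, plus strand: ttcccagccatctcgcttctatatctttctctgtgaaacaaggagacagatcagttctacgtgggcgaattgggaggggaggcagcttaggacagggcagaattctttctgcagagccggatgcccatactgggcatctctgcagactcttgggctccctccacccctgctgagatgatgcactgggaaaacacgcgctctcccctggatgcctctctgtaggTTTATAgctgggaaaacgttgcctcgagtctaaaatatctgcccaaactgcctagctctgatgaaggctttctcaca
*Cav2*, chr6:17280934-17281233, plus strand: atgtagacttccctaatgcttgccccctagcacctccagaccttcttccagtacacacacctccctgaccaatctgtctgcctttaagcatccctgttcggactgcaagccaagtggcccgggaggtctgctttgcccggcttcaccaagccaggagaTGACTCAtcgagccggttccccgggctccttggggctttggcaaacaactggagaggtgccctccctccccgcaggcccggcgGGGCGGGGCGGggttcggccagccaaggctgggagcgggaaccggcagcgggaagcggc
*Cavin2*, chr1:51328016-51328315, plus strand: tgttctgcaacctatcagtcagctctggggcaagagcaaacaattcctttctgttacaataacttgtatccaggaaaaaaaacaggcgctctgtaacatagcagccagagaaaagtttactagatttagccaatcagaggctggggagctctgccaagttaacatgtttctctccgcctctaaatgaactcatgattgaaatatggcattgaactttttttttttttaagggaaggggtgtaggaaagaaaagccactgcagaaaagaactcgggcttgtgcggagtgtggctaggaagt
*Cavin3*, chr7:105131458-105131757, minus strand: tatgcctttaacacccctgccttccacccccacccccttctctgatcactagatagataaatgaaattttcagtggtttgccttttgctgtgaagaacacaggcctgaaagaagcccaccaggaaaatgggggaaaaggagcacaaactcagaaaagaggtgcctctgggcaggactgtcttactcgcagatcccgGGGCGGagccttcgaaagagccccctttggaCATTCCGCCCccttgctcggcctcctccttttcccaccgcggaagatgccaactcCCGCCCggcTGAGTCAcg
The *Cav1* window was 52.3% GC with 8 CG pairs and held 1 TATA box match, on the opposite strand at position -27 (counted from the first transcribed base, which is 1). The *Cav2* window was richer in GC, at 64.3% with 16 CG pairs, and held 2 GC boxes at -9 and -4 and an AP-1 match at -92. *Cavin3* had 55.3% GC, 3 GC boxes, of which the one at -19 overlapped a TEAD match, and an AP-1 match at 42, while *Cavin2* was the poorest in GC at 42.7% and held none of these motifs. Over 21770 promoters of the same length, 13.2% held a TATA box match, 42.48% a GC box, 14% a TEAD match, 7.14% an AP-1 match and 3.37% a TCF/LEF match, with a median of 54.3% GC and 11 CG pairs. A match describes the letters only.

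Of the 7 members, 6 passed a filter applied to all identifiers (1 CPM or more in 3 or more libraries), leaving 13606 genes tested. The exception was *Cav3*, the muscle caveolin, with 0 counts in 33 libraries, which allows a level of up to 0.02 CPM over all libraries together. *Cavin4* passed only through 3 in vivo AKP libraries that reached 1 CPM. It had 50 counts in all 33 libraries, against 407 for *Cavin2*, 6082 for *Cavin3*, 8470 for *Cav1*, 13901 for *Cav2* and 86744 for *Cavin1*. Antisense transcripts overlap every member but *Cavin4* in the annotation, and the strand setting of the counting is not given in the sources used here. Only 2 of these 7 transcripts are among the identifiers counted: Gm15581, across *Cav2* and *Cav1*, with 4 counts in all, and 9330175M20Rik, over *Cavin2*, with 0. The other 5 were not measured.

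**Figure D1:**
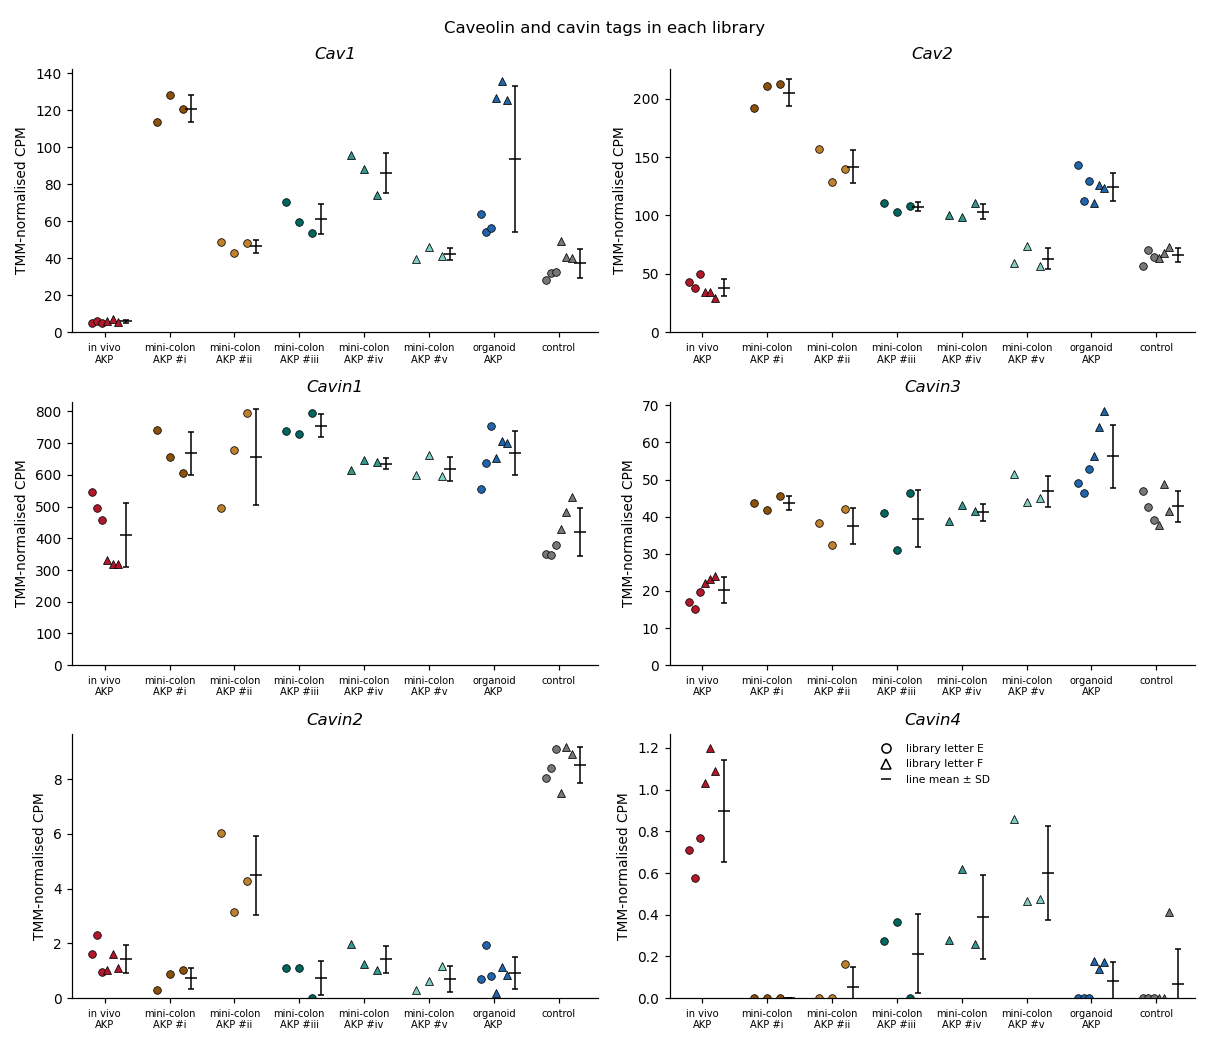
Level of 6 members in each library. Each panel is a gene, the y axis is TMM-scaled CPM, and lines run along the x axis from in vivo AKP over mini-colon AKP #i to #v and organoid AKP to control; circles are libraries of letter E, triangles letter F, and the bar beside them is the mean ± SD. *Cav1* lies between 4.98 and 7.20 CPM in in vivo AKP and at 28.0 CPM or more everywhere else, and *Cavin2* is highest in control.

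*Cav1*, the principal caveolin outside muscle, was the member in which in vivo AKP stood farthest below the other lines. In in vivo AKP its 6 libraries held 4.98, 5.80 and 7.20 CPM (lowest, median and highest). In organoid AKP they held 54.0, 94.6 and 136.0 CPM, and in control 28.0, 36.4 and 49.3 CPM. The 3 lines did not overlap, with every organoid AKP library above every control library and every in vivo AKP library below both. The organoid AKP libraries fell into 2 sets by letter, with 63.7, 54.0 and 56.4 CPM under E and 126.6, 136.0 and 125.6 CPM under F. Control showed a smaller gap in the same direction, with 28.0–32.6 CPM under E and 40.1–49.3 CPM under F.

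The mini-colon lines spread over a 2.86-fold range of *Cav1* between their highest and lowest means. #i had 113.8, 128.2 and 120.8 CPM and #iv had 95.6, 88.4 and 74.2 CPM. #iii had 70.2, 59.8 and 53.7 CPM, #ii had 48.6, 42.6 and 48.2 CPM, and #v had 39.8, 46.0 and 41.2 CPM. The line means therefore ran 120.9 (#i), 93.7 (organoid AKP), 86.1 (#iv), 61.2 (#iii), 46.4 (#ii), 42.4 (#v), 37.2 (control) and 5.89 CPM (in vivo AKP). Of the neighbours in this order, #iv and #iii, #iii and #ii, and control and in vivo AKP did not overlap; the others did.

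*Cav2*, the partner that depends on caveolin-1 for its export, had a narrower range over the lines but the same 2 extremes. Its in vivo AKP libraries held 29.7, 36.1 and 49.7 CPM, its organoid AKP libraries 110.5, 124.8 and 143.0 CPM, and its control libraries 56.4, 66.0 and 73.3 CPM, again without overlap between the 3 lines. Unlike *Cav1*, it showed no split by letter in organoid AKP, where E libraries held 112.2–143.0 CPM and F libraries 110.5–125.8 CPM.

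In the mini-colon lines, *Cav2* was at 192.4, 211.1 and 212.4 CPM in #i and at 156.6, 128.8 and 139.9 CPM in #ii. It was at 110.5, 103.1 and 108.4 CPM in #iii and at 100.6, 98.4 and 111.0 CPM in #iv. In #v it was at 59.6, 73.5 and 56.3 CPM. #i therefore lay above every other library of the series and 3.25-fold above #v, whose libraries overlapped control. This is the spread for which the gene was chosen, so no test is attached to it. In the order of all means, #i (205.3), #ii (141.8), organoid AKP (124.1), #iii (107.3), #iv (103.4), control (65.9), #v (63.1) and in vivo AKP (38.2 CPM), the neighbours without overlap were #i and #ii, organoid AKP and #iii, #iv and control, and #v and in vivo AKP.

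*Cavin1*, which encodes the coat protein without which caveolae do not form, varied little among the cells with activated OptoCre. Its in vivo AKP libraries held 318.5, 394.8 and 547.4 CPM, its organoid AKP libraries 556.9, 677.8 and 754.6 CPM, and its control libraries 345.9, 403.1 and 529.0 CPM. Organoid AKP stood above both of the other lines without overlap, and in vivo AKP overlapped control. In vivo AKP and control each split by letter but in opposite senses: in vivo AKP held 456.7–547.4 CPM under E and 318.5–332.9 CPM under F, and control held 345.9–377.8 CPM under E and 428.4–529.0 CPM under F. The mini-colon libraries lay between 496.2 and 796.2 CPM, and their line means differed by no more than 1.22-fold, between #iii (754.8 CPM) and #v (619.5 CPM). Only #v and control, among neighbours in the order of means, did not overlap.

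*Cavin3*, the cavin that binds protein kinase C delta, was lowest in in vivo AKP. The in vivo AKP libraries held 15.2, 20.9 and 24.0 CPM, those of organoid AKP 46.5, 54.6 and 68.4 CPM, and those of control 37.7, 42.2 and 48.7 CPM. Every in vivo AKP library lay below every other library of the series, and those of organoid AKP overlapped control. The mini-colon libraries were at 31.1–51.6 CPM, and the highest and lowest line means, 46.8 CPM in #v and 37.5 CPM in #ii, differed by 1.25-fold.

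*Cavin2*, the membrane-bending cavin, had low counts and was highest in control. In vivo AKP libraries held 0.96, 1.35 and 2.31 CPM and organoid AKP libraries 0.18, 0.84 and 1.95 CPM, while control held 7.51, 8.65 and 9.17 CPM. Among the mini-colon lines #ii stood out with 6.03, 3.16 and 4.26 CPM (21, 12 and 26 counts). The other 12 mini-colon libraries held between 0 and 1.97 CPM, from 0 to 10 counts each. No library of any line with recombined alleles reached the control libraries, and #ii lay above every other such library.

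*Cavin4*, the striated muscle cavin, was close to the limit of detection. The 6 in vivo AKP libraries had 3 to 7 counts each (26 in total), the 3 libraries of #v had 3, 3 and 4 counts, and those of #iv had 1, 2 and 1. #iii had 3 counts over its 3 libraries, #ii had 1 and #i had 0, which allows up to 0.307 CPM. Organoid AKP and control had 3 counts each over 6 libraries, in control all from 1 library. The summed level in in vivo AKP was 8.20 times that in organoid AKP and 7.96 times that in control. *Cavin4* passed the filter only through in vivo AKP libraries, so these ratios are descriptions and carry no interval. In #v the summed level was 5.14 times that in organoid AKP over both letters (95% exact interval 1.32–29.1, which covers counting error only). By the edgeR quasi-likelihood test the log2 fold change was 2.15 and did not pass (adjusted p = 0.0624), against 0.0113 by limma-voom. All #v libraries are letter F, as are the organoid AKP libraries that held the 3 counts. Within F the edgeR value was 1.63 (adjusted p = 0.186).

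**Figure D2:**
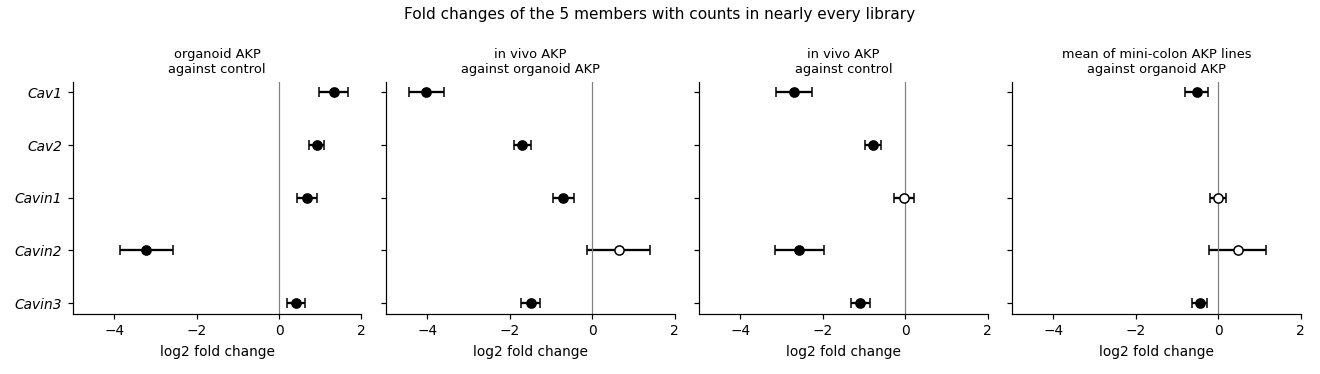
Log2 fold change of the 5 members other than *Cav3* and *Cavin4* in 4 comparisons: organoid AKP against control, in vivo AKP against organoid AKP, in vivo AKP against control, and the mean of the mini-colon lines against organoid AKP. Points are edgeR estimates, bars 95% intervals, and filled points passed an adjusted p of 0.05. *Cav2* is not plotted for the mini-colon lines, on which it was chosen, and *Cav1* is the member farthest below 0 in in vivo AKP against organoid AKP, at -4.02.

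The first comparison set organoid AKP, which never left conventional culture, against the unrecombined control. The study reports that healthy organoids did not grow in the basal medium used before RNA was taken. Recombination and growth in that medium therefore cannot be told apart here. Both expressed caveolins and 2 cavins were higher in organoid AKP than in control, and the other called cavin was far lower. By the edgeR quasi-likelihood test, *Cav1* was higher by 1.33 ± 0.18 (log2 fold change ± SE, 6 against 6 libraries, adjusted p = 8.74e-08) and *Cav2* by 0.91 ± 0.10 (5.27e-10). *Cavin1* was higher by 0.67 ± 0.13 (1.73e-05) and *Cavin3* by 0.40 ± 0.11 (0.00202), while *Cavin2* fell by 3.22 ± 0.33 (1.15e-10). That made 5 of 6 tested members called, 4 higher and 1 lower, where 71% of all tested genes were called in this comparison, 37.3% higher and 33.6% lower. A share of 5 in 6 is near that background and is no result about the members as a set. In bulk RNA, fewer cells that express a gene and less RNA per cell cannot be told apart.

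The size of the *Cav1* difference between organoid AKP and control depended on the letter. It was 0.87 among E libraries, where 67.7% of genes were called, and 1.51 among F libraries, where 72.5% were, and the interaction, 0.70 ± 0.17, passed the threshold (adjusted p = 0.00334). 13.2% of 13310 genes did so in this comparison, and no other member did in this fit. *Cavin1* had an interaction of -0.31 (0.1), which passed when no filter on low counts was used (-0.34, 0.037). *Cavin3* was past the threshold among F libraries (0.50, adjusted p = 3.14e-05) and not among E libraries (0.18, 0.284), but its interaction of 0.38 was not past it either (0.146). What the letter stands for, and its part in these values, was not tested.

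Against organoid AKP, the in vivo AKP line had less of every member that makes up the common caveolar coat of non-muscle cells except *Cavin2*. *Cav1* fell by 4.02 ± 0.22 (adjusted p = 4.04e-16), *Cav2* by 1.69 ± 0.10 (1.66e-15), *Cavin3* by 1.49 ± 0.12 (2.43e-12) and *Cavin1* by 0.70 ± 0.13 (3.99e-05). *Cavin2* differed by 0.65 ± 0.39, which did not pass (0.21). The fold change of *Cav1* lay at percentile 0.9 of all tested genes. With *Cavin4* left aside this gave 4 members lower, beside 34.4% of all genes called, 17% lower and 17.4% higher. *Cavin4* was in the test only because of its in vivo AKP libraries, so it is not counted and its higher level is a description only.

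The fall held within both letters for the caveolins. *Cav1* differed by -3.39 on the log2 scale among E libraries and by -4.36 among F libraries, with an interaction of -1.01 ± 0.24 (adjusted p = 0.00179), and *Cav2* by -1.54 and -1.86, beside 27.8% of genes called under E and 50.3% under F. For *Cavin1* the values were -0.37 under E (0.0375) and -1.07 under F (4.35e-17), an interaction of -0.75 ± 0.13 (2.45e-05), where 20.9% of genes had an interaction past the threshold. *Cavin3* differed by -1.50 and -1.43. Leaving out any 1 library kept the calls of all 4 genes, with *Cav1* between -4.10 and -3.88.

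**Figure D3:**
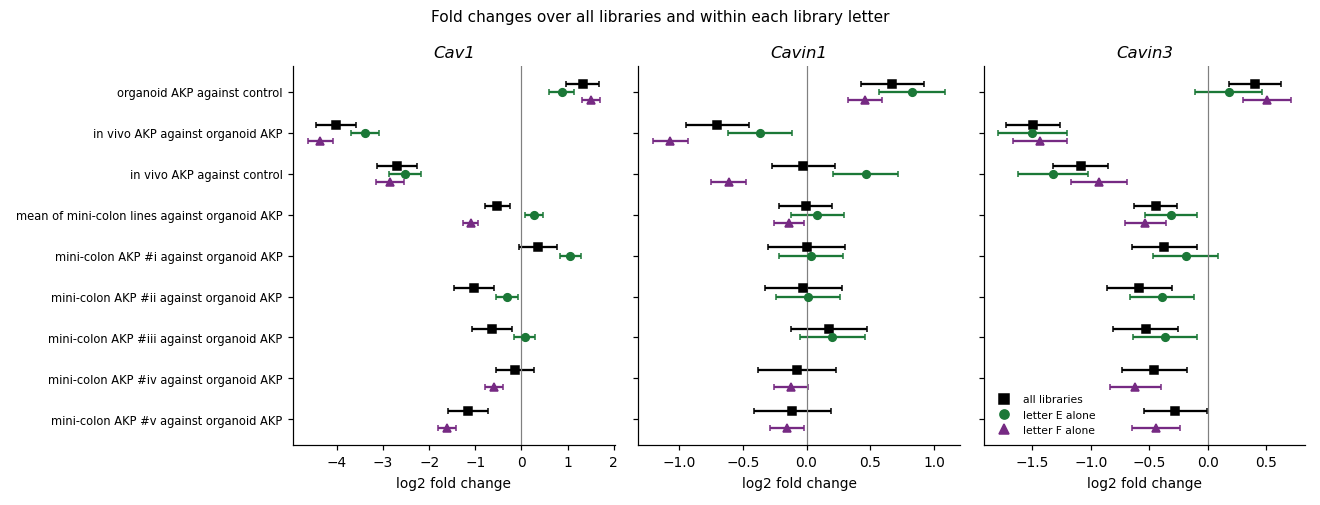
Log2 fold changes of *Cav1*, *Cavin1* and *Cavin3* in 9 comparisons, over all libraries (squares), libraries of letter E (circles) and of letter F (triangles), with bars of 95% intervals. *Cavin1* in in vivo AKP against control lies on opposite sides of 0 under the letters, at 0.46 (E) and -0.61 (F), whereas *Cav1* in in vivo AKP against organoid AKP is at -3.39 and -4.36.

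Other genes moved with the in vivo AKP line and with the letter. The fibroblast list summed to 45.0–286.1 CPM in in vivo AKP, against 6.13–25.7 CPM for organoid AKP and 3.85–5.48 CPM for control. It was nearly all *Vim*, which held 37.4–42.3 CPM in in vivo AKP libraries of letter E and 202.4–274.9 CPM in those of letter F, while *Col1a1* reached at most 1.09 CPM. The endothelial list summed to 8.83–38.0 CPM in in vivo AKP, against 3.24–7.70 CPM for organoid AKP and 1.51–3.03 CPM for control, mainly through *Flt1* and *Esam*, with *Cdh5* at most 1.34 CPM. *Cav1* and *Cav2* were lowest in the line in which both lists had their highest sums, and among the mini-colon lines the fibroblast sum was highest, at 60.8–135.2 CPM, in #v, where *Cav2* was lowest. The part of these genes in the results was not tested. *Xist* held 438.2–1096 CPM in in vivo AKP, against at most 1.72 CPM elsewhere, and the Y-linked *Ddx3y* was at most 0.400 CPM in in vivo AKP and 34.9–127.6 CPM elsewhere. The sex of the animals of origin and the way the tumours arose cannot be told apart here.

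Set against control, the in vivo AKP line was lower in both caveolins, *Cavin2* and *Cavin3*. *Cav1* fell by 2.69 ± 0.22 (edgeR adjusted p = 1.29e-12), *Cav2* by 0.78 ± 0.10 (2.39e-08), *Cavin3* by 1.09 ± 0.12 (7.06e-10) and *Cavin2* by 2.57 ± 0.30 (2.72e-09). *Cavin4* is not counted here either, for the reason given above, and 72.2% of all genes were called, 38.8% higher and 33.3% lower. *Cavin1* differed by -0.03 ± 0.13 (0.856). That value averaged libraries of letter E, in which *Cavin1* was higher in in vivo AKP by 0.46 (0.00337), and libraries of letter F, in which it fell by 0.61 (2.08e-10), beside 70.5% and 71.7% of genes called, an interaction of -1.06 ± 0.13 (2.65e-08). *Cav2* was lower under both letters, by 0.56 and 1.10, with an interaction of -0.53 ± 0.17 (0.0127), where 31.9% of genes had one. This comparison shares its libraries with the previous 2 and is no separate evidence.

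*Cav1* and *Cav2* did not fall to the same degree in in vivo AKP. Per 100 *Cav2* counts there were 16.0 ± 4.18 *Cav1* counts in in vivo AKP (SD, n = 6 libraries), 76.7 ± 34.6 in organoid AKP and 56.5 ± 11.3 in control. All 6 in vivo AKP libraries, at 10.4 to 20.9, lay below all 12 others, and a 2-sided exact permutation test gave p = 0.00216 (adjusted 0.00324 over 3 comparisons) against organoid AKP and against control alike, the smallest value that 6 against 6 libraries allow. The test exchanged libraries across the letters, although the ratio differed by letter. The ratio was also chosen after the data had been seen, which limits what its p-values can carry. Organoid AKP and control overlapped over both letters together (exact permutation p = 0.19). The organoid AKP libraries had 45.4 ± 2.41 under E and 108.0 ± 6.55 under F, so the wide SD of that line follows the letter. Control had 48.9 ± 2.54 under E and 64.1 ± 11.8 under F, and organoid AKP overlapped control under E (43.5–48.1 against 46.0–50.9) and lay wholly above it under F (101.4–114.5 against 54.8–77.4), which was not tested within letters. The mini-colon lines had 58.9 (#i), 32.9 (#ii), 57.0 (#iii), 83.9 (#iv) and 67.6 (#v), and #ii, in which *Cav2* was second highest, had the fewest *Cav1* counts per *Cav2* count outside in vivo AKP. Since the tags per transcript of the 2 genes may differ, the ratio compares libraries and not the 2 genes.

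**Figure D4:**
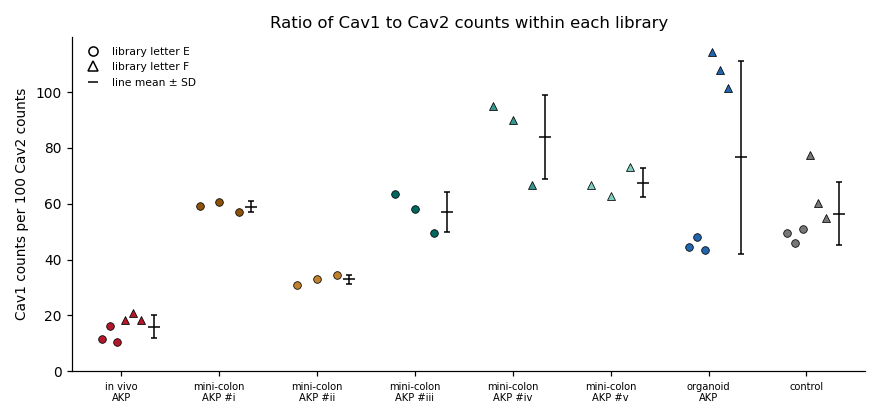
*Cav1* counts per 100 *Cav2* counts in each library, by line, from in vivo AKP on the left to control on the right; circles are letter E, triangles letter F, and bars mean ± SD. The in vivo AKP libraries lie between 10.4 and 20.9, below all others, and the organoid AKP libraries form a set of E libraries near 45.4 and a set of F libraries near 108.0.

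The mini-colon lines were set against organoid AKP to see whether tumours formed in the mini-colon kept the caveola genes of the parallel organoid culture. Over the mean of the 5 lines, *Cav1* was lower by 0.52 ± 0.14 (edgeR adjusted p = 0.0156) and *Cavin3* lower by 0.45 ± 0.09 (0.00117). *Cavin1* (-0.01 ± 0.11, 0.987) and *Cavin2* (0.47 ± 0.36, 0.435) did not pass. *Cav2*, chosen on these lines, is left untested and is given as a description, with a fitted value of -0.11 over all libraries, 0.18 under E and -0.58 under F. These 2 of 5 members stand beside 10.7% of all genes called, 7.26% lower and 3.42% higher. The *Cav1* call was lost when any of the organoid AKP libraries of letter F was left out (replicate 4, 5 or 6, adjusted p = 0.088, 0.113 and 0.0809). Within letters *Cav1* differed by 0.27 under E (0.0531) and by -1.10 under F (9.84e-15), while *Cavin3* was lower under both, by 0.32 (0.0488) and 0.53 (1.35e-05), where 17.3% and 21.1% of genes were called. Since #i to #iii hold no F library and #iv and #v no E library, the letter and the line cannot be told apart between those sets. Between #i and #v the tumour site, lumen or crypt, differs as well.

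Compared 1 by 1, the lines differed in which members passed, *Cav2* being left untested. In #ii *Cav1* was lower by 1.03 ± 0.23 (0.00132), *Cavin3* lower by 0.59 ± 0.14 (0.00286) and *Cavin2* higher by 2.28 ± 0.40 (7.73e-05), 3 of 5 members where 24.6% of genes were called. In #iii *Cav1* was lower by 0.63 ± 0.22 (0.0487) and *Cavin3* by 0.53 ± 0.14 (0.0112), 2 of 5 members where 16.2% of genes were called. In #v *Cav1* was lower by 1.16 ± 0.23 (0.000667), 1 of 5 members beside 10.6% of genes. In #i 0 of 5 members passed by edgeR or limma-voom or DESeq2 (1, *Cavin3*, at an unadjusted p under 0.05), with *Cav1* at 0.35 (0.284) and 7.15% of genes called. In #iv 0 of 5 passed by edgeR and limma-voom and 1 by DESeq2 (1, *Cavin3*, at an unadjusted p under 0.05), with *Cavin3* at -0.46 (0.0544) and 4.9% of genes called.

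Read against organoid AKP libraries of their own letter, the *Cav1* values of the lines changed order. Under E, #i was higher by 1.06 (2.03e-08), #iii differed by 0.07 (0.751) and #ii by -0.32 (0.051), where 8.01%, 16.3% and 23.8% of genes were called in #i, #iii and #ii. Under F, #iv fell by 0.60 (9.06e-06) and #v fell by 1.61 (4.08e-17), where 13.2% and 28.2% of genes were called. So #i gained a call and #ii and #iii lost theirs, and the *Cav1* call in #iii was also lost in 6 of 9 fits that left out 1 library. *Cavin2* in #ii stayed higher under E, by 1.93 (0.00265), and *Cavin3* fell by 0.39 in #ii (0.0345), by 0.62 in #iv (5.82e-05) and by 0.44 in #v (0.00088). In #iii the *Cavin3* call was lost (-0.37, 0.0704), and in #i *Cavin3* was at -0.19 (0.484). For *Cav2* the fitted values over all libraries, given as a description only, were 0.73 in #i, 0.19 in #ii, -0.21 in #iii, -0.26 in #iv and -0.97 in #v.

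Whether *Cav2* and *Cav1* moved with their stretch of chromosome 6 was examined through 8 listed neighbours, of which 5 were expressed enough to test. Of all genes, 71% were called in organoid AKP against control and 34.4% in in vivo AKP against organoid AKP. In organoid AKP against control, 1 was higher and 3 were lower, with a median of -0.42 beside 0.06 for all genes: *Met*, the receptor of hepatocyte growth factor 122.3 kb after *Cav1*, was higher by 0.41 ± 0.10 (0.000635), while *Tes*, a focal adhesion protein, and *Capza2*, an actin capping subunit, fell by 0.48 ± 0.09 (1.92e-05) and 0.42 ± 0.09 (5.24e-05). *Met*, the nearest listed gene after *Cav1*, was thus higher along with the caveolins, and 3 genes farther off were lower. In in vivo AKP against organoid AKP, *Met* fell by 0.77 ± 0.10 (3.33e-07), *Capza2* by 0.46 ± 0.09 (7.36e-05) and *Tes* by 0.25 ± 0.09 (0.0323), a median of -0.44 beside 0, which is far less than the fall of *Cav1*. Over the mini-colon lines, *Met* held 122.0–141.6 CPM in #i, 122.3–136.9 in #ii, 90.7–94.0 in #iii, 68.6–87.5 in #iv and 68.2–72.4 in #v. It therefore shared with *Cav2* its low end in #v and its high end in #i and #ii, although #i and #ii overlapped for *Met* and did not for *Cav2*. *Capza2* averaged 192.7 CPM in #i, 169.7 in #ii and 134.9–139.3 CPM in #iii to #v, and *St7* averaged 19.96 CPM in #i, 23.9 in #ii, 18.5 in #iii, 12.1 in #iv and 11.9 in #v. *Tes* averaged 311.5 CPM in #i, 241.5 in #ii and 325.9 in #v, and *Cftr* 32.2 CPM in #i and 56.7 in #v. *Met*, *Capza2* and *St7* thus had higher means in #i and #ii than in #iv and #v, as *Cav2* did, and *Tes* did not. Line and letter cannot be told apart here, as #i and #ii are E and #iv and #v F. In vivo AKP averaged, under E and F, 74.5 and 48.8 CPM of *Met*, 108.8 and 103.2 of *Capza2* and 14.4 and 7.69 of *St7*. Its *Tes* averaged 226.2 and 299.7 CPM. In organoid AKP these were 105.6 and 104.8, 152.7 and 138.6, 17.5 and 13.1, and 273.1 and 351.7 CPM. In control they were 82.4 and 75.8, 193.7 and 196.0, 10.25 and 12.8, and 436.1 and 439.4 CPM. No test of a shared regional change was run, and the part of the letter was not tested.

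**Figure D5:**
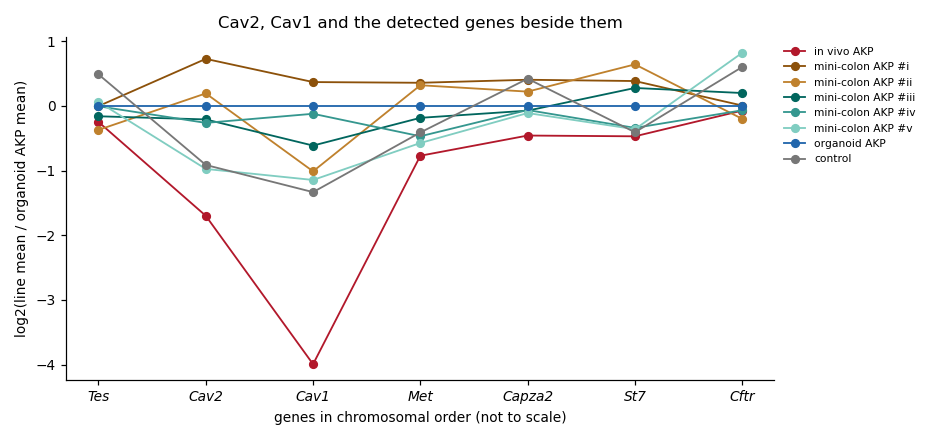
Log2 ratio of each line's mean level to the organoid AKP mean for *Tes*, *Cav2*, *Cav1*, *Met*, *Capza2*, *St7* and *Cftr*, in their order along chromosome 6 on the x axis; each line of the plot is a cell line. The in vivo AKP curve dips at *Cav2* and *Cav1* and returns toward 0 on both sides of them, and #i has its peak at *Cav2*.

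Genes that work with caveolins and cavins were read from lists chosen with earlier results of these data known, and are given as counts. Of all genes, 71% were called in organoid AKP against control, 34.4% in in vivo AKP against organoid AKP and 10.7% over the mini-colon mean. The shares of the lists in organoid AKP against control are near that background and are no result about them as sets. Of 11 proteins that shape the caveolar neck or bind caveolae, 9 were tested, and in organoid AKP against control 3 were higher and 3 lower (median -0.13, all genes 0.06). *Ehd2*, the ATPase that sits at the caveolar neck, averaged 21.4 ± 2.18 CPM in organoid AKP, against 13.4 ± 1.79 CPM for control (SD, n = 6 each), higher by 0.66 ± 0.12 (1.64e-05). *Ror1*, a receptor kinase that holds caveolin and cavin-1 together, had 24 counts in organoid AKP and 0 in control, and *Dnm3*, a dynamin, had 1 count in organoid AKP and 91 in control. In in vivo AKP against organoid AKP, 1 was higher and 3 lower (median -0.04, all genes 0): *Ehd2* fell by 0.80 ± 0.12 (4.02e-06) and its relative *Ehd4* by 0.44 ± 0.12 (0.00273), whereas *Ror1* was higher by 2.04 ± 0.46 (0.000781). *Ehd2* thus went the way of the caveolins in both comparisons. Over the mean of the mini-colon lines, 3 were lower (median -0.35, all genes -0.03), namely *Dnm2*, which cuts vesicles from the membrane (-0.35 ± 0.10, 0.0164), *Dnm1* (-2.36 ± 0.72, 0.0331, on 10 counts in organoid AKP) and *Pacsin3*, a curvature-sensing protein (-0.60 ± 0.19, 0.0364). In organoid AKP *Pacsin3* averaged 17.8 CPM under E and 38.9 CPM under F. It averaged 17.3 (#i), 15.5 (#ii) and 12.9 CPM (#iii) in the E lines and 27.9 (#iv) and 27.3 CPM (#v) in the F lines. The part of the letter in this call was not tested.

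All 7 kinases that phosphorylate caveolins or bind cavins were tested. In organoid AKP against control 1 was higher and 4 lower (median -0.38), beside 71% of all genes called. That is near the background and no result about the kinases as a set. *Prkcd*, the partner of cavin-3, averaged 44.5 ± 8.62 CPM in organoid AKP, against 268.3 ± 22.8 CPM for control, and fell by 2.58 ± 0.14 (2.05e-17), and *Prkca* fell by 1.56 ± 0.13 (1.46e-12). *Fyn*, a Src-family kinase that phosphorylates caveolin-1, averaged 18.2 ± 3.48 CPM in organoid AKP, against 0.340 ± 0.601 CPM for control. In in vivo AKP against organoid AKP, *Prkca* was lower by 0.50 ± 0.14 (0.00455) and *Fyn* higher by 0.52 ± 0.17 (0.0172), and the other 5 did not pass. In that comparison 34.4% of all genes were called. Over the mini-colon lines *Fyn* was lower than in organoid AKP by 1.22 ± 0.15 (5.14e-07) and *Prkca* by 0.36 ± 0.11 (0.0337).

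Of 16 receptors and transporters described in caveolae, 12 were tested. In organoid AKP against control 3 were higher and 5 lower (median -0.12), beside 71% of all genes called. *Slc7a1*, a cationic amino acid transporter, was higher by 3.04 ± 0.25 (1.1e-11), and the receptors *Egfr* and *Insr* fell by 1.84 ± 0.18 (3.28e-11) and 1.52 ± 0.15 (4.65e-11). In in vivo AKP against organoid AKP, 2 were higher (median -0.09), where 17.4% of all genes were: *Bmpr1a* by 0.43 ± 0.10 (0.000561) and *Egfr* by 0.50 ± 0.18 (0.0319).

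Across the 8 line means, *Cav1* ran most closely with *Cavin3* (Pearson r = 0.869, on log2(CPM + 1)) and *Cav2* (0.863) among the members, and less so with *Cavin1* (0.764). *Cav2* and *Cavin3* had r = 0.597, *Cavin1* and *Cavin3* 0.584, and *Cavin2* had r between -0.552 and -0.085 with the others. The 8 points share their controls and the low in vivo AKP value, so these are descriptions of 8 lines. Over tested genes whose highest line mean reached 5 CPM, the 3 patterns most like that of *Cav1* were *Clip4* (0.972), *Mir100hg* (0.970) and *Dcun1d4* (0.965), and for *Cav2* they were *Serpinb8* (0.972), *Gipc1* (0.965) and *Rab25* (0.957). For *Cavin1* they were *Usp27x* (0.974), *Cebpg* (0.969) and *Samd5* (0.967), for *Cavin2* *Shkbp1* (0.986), *Serpinb9* (0.980) and *Serpinb6b* (0.975), and for *Cavin3* *Cd55* (0.967), *Efr3a* (0.959) and *Mcfd2* (0.948). With Spearman's rho in place of r, 1 of the 3 was kept for *Cav2* and 0 for the other members, so the ranking depends on the measure.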

How the data were processed

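RNA was sequenced by a 3′ tag method (QuantSeq) in 33 libraries of mouse colon organoids. The authors aligned reads to GRCm39 with STAR and deposited raw counts per gene for each library; the submitters' processing notes also name edgeR, limma and R 4.1.2. The counting tool, its annotation and its strand setting are not given in the sources used here. From the deposited counts, TMM-scaled CPM and robust quasi-likelihood tests were computed with edgeR 4.0.16 (R 4.3.3) over all 33 libraries and the 13606 of 32285 identifiers that reached 1 CPM in 3 libraries or more. P-values were adjusted by Benjamini-Hochberg over all genes tested, with a threshold of 0.05. SE is the absolute log2 fold change over the square root of F. The 611 identifiers without a gene name (6.85% of counts) stayed in the library sizes, and leaving them out was an alternative.

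Library totals of 2438672 to 8256526 set the precision, and exact intervals cover counting error only. A count of 0 was read as up to 3 counts. Lines come from the labels, letters from the library names. Interactions with the letter were fitted on in vivo AKP, organoid AKP and control; the one for in vivo AKP against control and the *Cav1* to *Cav2* ratio were added after the data had been seen. Named genes of each list were those with the smallest p, up to 3 a list, and the genes most like each member were the 3 highest Pearson r over line means of log2(CPM + 1). Alternatives were RLE or no scaling, other filters, limma-voom 3.58.1, DESeq2 1.42.0, fewer libraries, the replicate block and the letter. The fit was tested on simulated data. The members and lists were chosen with earlier results of these data known. One of the engineered alleles is not reported here.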

Additional observations from a re-analysis of the deposited data

Results flagged for a closer look

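In 1 control library *Cavin4* was at 0.411 CPM (3 counts) while the other 5 had 0 counts, which set it apart from its group. The rule's chance rate of about 1 in 20 groups of 6 libraries does not apply to counts this near 0. Any count in a single library would be flagged there. Among libraries of letter F, the effect on *Cav1* was larger than among those of letter E, by 0.70 in organoid AKP against control and by -1.01 (a deeper fall) in in vivo AKP against organoid AKP. *Cavin1* differed between the letters by -0.75 in in vivo AKP against organoid AKP and by -1.06 in in vivo AKP against control. *Cav2* differed between the letters by -0.53 in in vivo AKP against control. The meaning of the letter is not stated, and its part in these values was not tested.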

How the results depend on the processing

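Of the alternative values, 1634 kept direction and side of the threshold, 67 moved, 62 changed sign, 20 passed newly and 19 no longer passed. The in vivo AKP and organoid AKP calls for *Cav1*, *Cav2* and *Cavin3* held whichever library was left out. Low counts limit *Cavin2* and *Cavin4*, and the causes of the changes below were not tested.

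The sign changed mostly where the value was near 0. *Cavin1* in #i (-0.0004) became 0.0067 with RLE scaling or DESeq2, 0.0179 without scaling, 0.0054 without a filter, 0.0064 in a fit of those lines alone and 0.0352 under letter E. *Cavin1* in in vivo AKP against control became 0.0413 without scaling and 0.46 under E. *Cavin4* in organoid AKP against control (-0.02) became 0.0526 without scaling, 0.25 with limma-voom, 0.0793 with the replicate block, 0.015 with the letter as a factor and 0.0067 under F. *Cavin4* in #ii (-0.39) became 0.32 with the replicate block and 0.28 with the letter as a factor. Under E, *Cav1*, *Cav2* and *Cavin1* over the mean of the mini-colon lines were 0.27, 0.18 and 0.0835, *Cavin1* in #ii was 0.0125 and *Cav1* in #iii was 0.0706. Under F, *Cavin2* in #v was 0.10.

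The number of called members moved by over 1.5 times only in the mini-colon comparisons. Outside them, *Cavin3* in organoid AKP against control was not called under E (0.18, adjusted p = 0.284, edgeR), and *Cavin1* in in vivo AKP against control was called under E (0.46, 0.00337) and F (-0.61, 2.08e-10). #iv (0) had 1 without scaling and with DESeq2, and 2 with the letter as a factor and under F. #iii (2) had 1 without a filter, with limma-voom, in a fit of those lines alone and with the letter as a factor, and 0 under E. #v (1) had 2 with limma-voom, with the letter as a factor and under F. #i (0) had 1 with the letter as a factor and under E, and the mean of the lines (2) had 1 under E. Over all genes the mean of the lines called 1453, against 2646 in a fit of those lines alone, 2250 under E and 2758 under F. Single lines called 490 (#i) and 1420 (#iii) with the letter as a factor, and 1725 (#iv) and 3680 (#v) under F.

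Leaving out 1 library each time gave *Cavin1* between -0.13 and 0.0371 in in vivo AKP against control, -0.0517 and 0.0329 over the mean of the mini-colon lines, -0.0795 and 0.0692 in #i and -0.18 and 0.16 in #ii. *Cavin2* ran between -0.58 and 0.0804 in #i, -0.53 and 0.29 in #iii and -0.81 and 0.0858 in #v, and *Cavin4* in organoid AKP against control between -0.39 and 2.22. The difference between letters ran between -0.52 and 0.56 (*Cavin2*) and -0.074 and 0.0959 (*Cavin3*) in in vivo AKP against organoid AKP, and between -1.05 and 0.0284 (*Cavin2*) and -0.47 and 2.78 (*Cavin4*) in organoid AKP against control. Called members ran 0 to 2 in #iii, 0 to 1 in #iv and 1 to 2 over the mean of the lines. *Cavin3* in #iii was no longer called without #iii replicate 2 (adjusted p = 0.121, edgeR) and in #iv was called without organoid AKP replicate 1 (0.0364) or 2 (0.0278). Over all genes the calls ran 863 to 1688 for the mean of the lines, 222 to 1717 for #i, 2003 to 3779 for #ii, 971 to 2614 for #iii, 309 to 712 for #iv and 690 to 1393 for #v.

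Replicate numbers are shared between the lines, but same-numbered libraries did not deviate together throughout (correlations -0.103 to 0.375). In in vivo AKP, organoid AKP and control, replicates 1 to 3 are letter E and 4 to 6 letter F. Replicates 1 to 3 of #iv and #v are F, so the replicate block set them beside organoid AKP libraries of the other letter. Its values for #iv, #v and the mean of the lines therefore mix the block with the letter. Within F alone, *Cav1* in #iv was -0.60. With the replicate block, *Cav1* over the mean of the mini-colon lines was -0.05 (0.851), *Cav1* in #i 0.82 (0.000591), in #iii -0.16 (0.572) and in #iv 0.33. Called members were then 1 for the mean of the lines, 1 in #i, 1 in #iii and 2 in #v, and all genes called were 387 in #i, 1203 in #iii, 3259 in #iv and 3938 in #v.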

Other observations

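Caveolae are 1 of several ways a cell organises or takes in its membrane, and 2 other gene groups were read beside them. Flotillins and their stomatin-domain relatives form caveolin-independent membrane scaffolds, and 9 of 11 were tested. Of all genes, 17% were lower and 17.4% higher in in vivo AKP against organoid AKP, and 71% were called in organoid AKP against control. The flotillin list is near that 71% in organoid AKP against control, which is no result about it as a set. In in vivo AKP against organoid AKP 5 were lower (median -0.32, all genes 0): *Flot2*, a flotillin, averaged 15.2 ± 2.15 CPM in in vivo AKP, against 29.6 ± 6.12 CPM for organoid AKP (SD, n = 6 each), and fell by 0.97 ± 0.13 (edgeR adjusted p = 5.22e-07), *Stom* fell by 1.72 ± 0.26 (1.92e-06) and *Erlin1*, an endoplasmic reticulum scaffold protein, by 0.98 ± 0.23 (0.00128). *Erlin1* averaged 20.5 ± 3.78 CPM in in vivo AKP against 30.3 ± 9.15 CPM in organoid AKP under letter E, and 7.90 ± 2.48 CPM against 27.7 ± 5.36 CPM under F (SD, n = 3 each). In organoid AKP against control 4 were higher and 3 lower, with the mitochondrial *Stoml2* and *Phb2* higher by 1.90 ± 0.12 (1.04e-15) and 0.77 ± 0.10 (4.9e-08), and *Flot1* lower by 0.96 ± 0.13 (5.52e-08).

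Of 19 clathrin coat and adaptor genes 18 were tested, 3 higher and 4 lower in in vivo AKP against organoid AKP (median -0.07). That is near the 34.4% of all genes called there and no result about the list as a set. *Cltc*, the clathrin heavy chain, averaged 538.4 ± 44.2 CPM in in vivo AKP, against 379.8 ± 40.8 CPM for organoid AKP, higher by 0.50 ± 0.08 (6.73e-06), while the adaptors *Fcho1* and *Epn2* fell by 0.76 ± 0.16 (0.000241) and 0.61 ± 0.13 (0.000418). In organoid AKP against control 4 were higher and 7 lower (median -0.16), beside 71% of all genes called. There *Epn3* fell by 2.12 ± 0.12 (4.87e-17), *Fcho1* fell by 1.30 ± 0.15 (1.12e-09) and *Fcho2* fell by 0.94 ± 0.11 (2.19e-09). Over the mean of the mini-colon lines against organoid AKP 1 was higher and 4 lower, beside 10.7% of all genes called. Among the lower were *Epn2* (-0.48 ± 0.11, 0.00223), *Itsn1* (-0.30 ± 0.08, 0.00799) and *Hip1* (-0.96 ± 0.28, 0.0272).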
